A study of Homo sapiens with 12 samples.

Results

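The dual-specificity phosphatases DUSP1, DUSP4, DUSP5 and DUSP6, the Sprouty genes SPRY1, SPRY2 and SPRY4, the Sprouty-related genes SPRED1 and SPRED2, and IER3 were examined as feedback genes of the ERK pathway. They were taken by gene symbol from the deposited RNA sequencing counts, 10 of 26475 symbols, and all 10 passed the filter on low counts in every comparison. The libraries came from 2 human ovarian cancer cell lines, the teratocarcinoma line PA-1 and the adenocarcinoma line SK-OV-3. Each line received either the vehicle DMSO or 5 µM BAY-850, a bromodomain inhibitor of the chromatin regulator ATAD2, for 48 h. The 4 groups (PA-1 with DMSO, PA-1 with BAY-850, SK-OV-3 with DMSO and SK-OV-3 with BAY-850) held 3 biological replicates each, 12 libraries in all. PA-1 was cultured in DMEM and SK-OV-3 in RPMI, so line and medium cannot be told apart wherever the lines are compared. Both are established lines, and a change in a bulk library cannot tell fewer expressing cells from less RNA per cell.

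When growth factor receptors activate RAS, the kinases RAF, MEK and ERK are switched on in turn, and ERK then induces genes whose products restrain the same pathway. The DUSP proteins remove phosphate from MAP kinases, with DUSP1, DUSP4 and DUSP5 acting in the nucleus and DUSP6 acting on ERK in the cytoplasm. Sprouty and SPRED proteins act upstream of MEK, between the receptor and RAF, and IER3 is an immediate early gene whose product is an ERK substrate. Transcripts of these genes are often read as a measure of ERK output in tumor cells, although several also respond to stress signals.

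The library totals ranged from 34544505 to 51840233 expected counts, and the 10 genes had between 375 and 28929 counts per library. BAY-850 replicate 3 of SK-OV-3 stood apart, with the highest total but only 15634 genes with a count, against 17437 to 18440 in the other libraries. The line labels were checked with marker genes. All 6 teratocarcinoma markers examined (POU5F1, SOX2, LIN28A, LIN28B, DPPA4 and SALL4) were lower in SK-OV-3 with DMSO, where SOX2 and DPPA4 had 0 counts and the others had means of 0.0437 to 6.74 CPM (counts scaled to a common library total). Of the 6 adenocarcinoma markers (ERBB2, KRT7, KRT8, KRT18, KRT19 and CDH1), 5 were higher in SK-OV-3 with DMSO. Their log2 differences ran from 0.17 (KRT8) to 12.1 (KRT7). ERBB2 measured 2416 against 61.3 CPM, while KRT18 was higher in PA-1 (335 against 266 CPM). SOX2 had 34 counts in BAY-850 replicate 3 of SK-OV-3 and 0 in the other SK-OV-3 libraries. Log2 fold changes and counts of called genes that include this library are also given without it, whereas list medians, ranks, correlations and counts of groups that did not overlap are given only with it.

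Promoter sequence in RefSeq was matched for 7 of the 10 genes, and DUSP4, DUSP5 and IER3 had no entry in the table used. Each window covered the 250 bases before a start on GRCh38.p14. Windows of 3 genes that no annotated exon touches are printed, because the responses of these genes to BAY-850, described further on, were not alike. DUSP1 and SPRY1 fell with BAY-850 in SK-OV-3, and SPRY2 was called in neither line. The strand is that of the gene. The windows are chr5:172771196-172771445 for DUSP1 (minus strand), chr4:123396545-123396794 for SPRY1 (plus strand, the upstream of 2 RefSeq starts) and chr13:80341127-80341376 for SPRY2 (minus strand, the most upstream of 3). Capitals mark matches on both strands to 6 motifs. These were the cyclic AMP element TGACGTCA and the shorter TGACG that it contains, the ETS motif CCGGAA, the AP-1 motif TGANTCA, the TATA box TATAAA and the CArG box. The GC box GGGCGG was also searched and is left in lower case.
DUSP1: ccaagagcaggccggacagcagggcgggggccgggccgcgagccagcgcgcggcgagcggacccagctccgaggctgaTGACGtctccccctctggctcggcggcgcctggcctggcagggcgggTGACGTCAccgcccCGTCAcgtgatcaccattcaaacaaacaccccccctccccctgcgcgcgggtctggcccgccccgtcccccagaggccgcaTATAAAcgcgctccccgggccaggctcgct
SPRY1: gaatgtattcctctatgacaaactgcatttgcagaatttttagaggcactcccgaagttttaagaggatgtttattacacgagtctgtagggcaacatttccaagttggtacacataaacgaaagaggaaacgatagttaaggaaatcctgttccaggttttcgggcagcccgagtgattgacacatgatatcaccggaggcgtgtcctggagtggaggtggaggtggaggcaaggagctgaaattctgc
SPRY2: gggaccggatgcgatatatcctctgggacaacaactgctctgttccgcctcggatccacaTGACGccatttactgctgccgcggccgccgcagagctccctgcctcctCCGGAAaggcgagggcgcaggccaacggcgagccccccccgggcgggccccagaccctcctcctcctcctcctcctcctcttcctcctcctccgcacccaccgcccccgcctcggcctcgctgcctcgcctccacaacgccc
The DUSP1 window held TGACGTCA starting 125 bases before the start, a motif found in 1.65% of the 35116 promoter windows. It also held TATAAA starting 30 bases before the start (10.7% of windows), and separate TGACG matches starting 172 and 111 bases before it, the latter on the opposite strand (21.2% of windows). The SPRY2 window held CCGGAA starting 142 bases before the start (14.5% of windows) and TGACG starting 190 bases before it. GGGCGG matched at 4 places in the DUSP1 window and 2 in the SPRY2 window, none of them overlapping the capitals, and was found in 42.6% of windows. The printed SPRY1 window held none of these motifs. The window of the downstream SPRY1 start, which overlaps an annotated exon, held CCGGAA starting 67 bases before the start and 2 matches to GGGCGG. A downstream SPRED2 window that no annotated exon touches is not printed, and it held TATAAA starting 31 bases before its start. None of the windows of the 7 genes held TGANTCA (6.57% of windows) or a CArG box (1.16%). These are matches of letters, and no binding was measured.

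The first comparison asked how strongly each line expressed the feedback genes without the inhibitor. With DMSO, SK-OV-3 was higher in DUSP1, DUSP4, DUSP5, SPRED2 and IER3, and PA-1 was higher in DUSP6, SPRY2, SPRY4 and SPRED1. SPRY1 did not pass the test. Thus 5 of the 10 genes were higher in SK-OV-3 and 4 were lower, by the quasi-likelihood test of edgeR, adjusted by Benjamini-Hochberg over 16070 genes. The same test called 40.1% of all genes higher and 40.2% lower, so a call by itself was common here. The 9 called genes were also those whose libraries did not overlap, as was the case for 41.1% of all genes higher and 41.2% lower in SK-OV-3. The median log2 difference of the 10 genes was 0.20, against 0.0019 over all genes tested, and their log2 differences ran from -2.93 to 3.23.

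**Figure D1:**
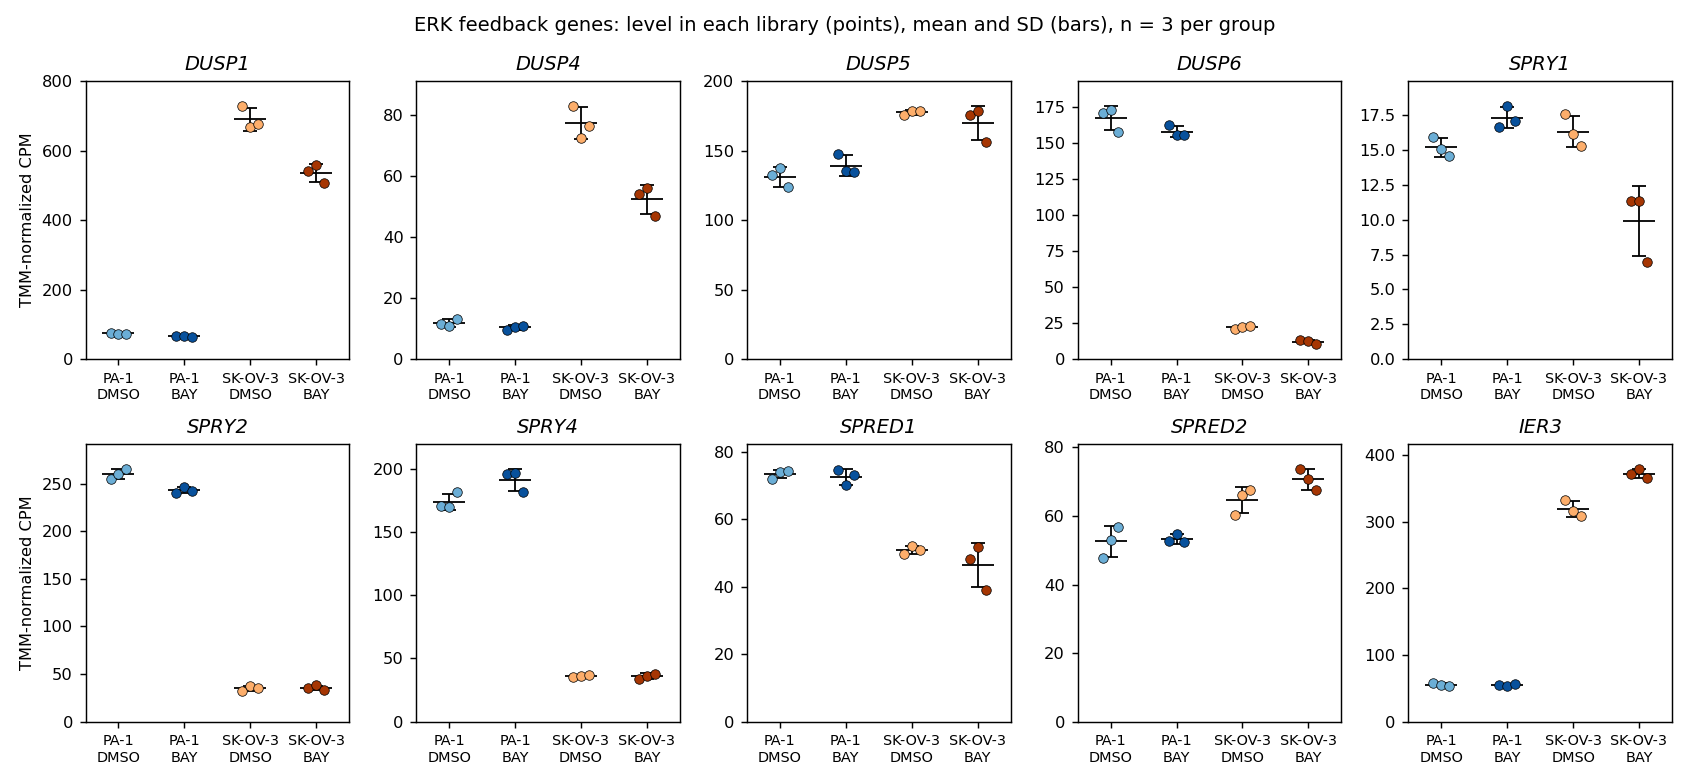
Level of each of the 10 feedback genes in all 12 libraries. The vertical axis gives TMM-normalized CPM, each point is 1 library, and the bars are the mean and SD of the 3 replicates of a group. The SK-OV-3 points of DUSP1, DUSP4 and IER3 sit far above the PA-1 points, those of DUSP6, SPRY2 and SPRY4 sit far below, and the DUSP1, DUSP4, DUSP6 and SPRY1 points of SK-OV-3 are lower with BAY-850 than with DMSO.

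Among the nuclear phosphatases, DUSP1 (GRCh38 chromosome 5, 172768090 to 172771195), which dephosphorylates ERK, JNK and p38, measured 74.5, 72.9 and 73.1 CPM in the DMSO libraries of PA-1 and 728, 667 and 677 CPM in those of SK-OV-3. All SK-OV-3 libraries were above all PA-1 libraries, a 9.37-fold difference (log2 difference 3.23, standard error 0.0570, adjusted p = 7.01e-14 by edgeR). DUSP4 (chromosome 8, 29333064 to 29350668), which acts on ERK and JNK, measured 11.6, 10.8 and 13.2 CPM in PA-1 and 83.0, 72.6 and 76.5 CPM in SK-OV-3, a 6.53-fold difference (adjusted p = 1.78e-11 by edgeR). DUSP5 (chromosome 10, 110497838 to 110511544), which is selective for ERK, differed far less, with 132, 137 and 124 CPM in PA-1 and 176, 179 and 179 CPM in SK-OV-3. The DUSP5 libraries of the lines did not overlap, at 1.35-fold (adjusted p = 1.03e-05 by edgeR).

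DUSP6 (chromosome 12, 89347232 to 89353271) had the opposite pattern to the nuclear phosphatases. It measured 171, 173 and 158 CPM in PA-1 and 20.7, 22.1 and 23.2 CPM in SK-OV-3. Every SK-OV-3 library was below every PA-1 library, and the SK-OV-3 level was 0.131 times that of PA-1 (log2 difference -2.93, standard error 0.0679, adjusted p = 6.92e-13 by edgeR). Among genes outside the list, those whose log2 CPM followed DUSP6 most closely over the 12 libraries, of 14083 ranked, included TSPAN33, PLAU, LFNG and PEG10, each with a Pearson correlation of 0.998. Because the libraries fall into 2 lines, these values describe mainly the gap between the lines. PLAU, the urokinase plasminogen activator, had means of 270 CPM in PA-1 with DMSO, 262 CPM with BAY-850, 161 CPM in SK-OV-3 with DMSO and 140 CPM with BAY-850.

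The Sprouty genes also differed in direction and size. SPRY2 (chromosome 13, 80335976 to 80340951) measured 255, 260 and 265 CPM in PA-1 and 32.3, 37.6 and 35.2 CPM in SK-OV-3, 0.134 times the PA-1 level (adjusted p = 5.68e-13 by edgeR). SPRY4 (chromosome 5, 142310427 to 142326455) measured 170.3, 169 and 181 CPM in PA-1 and 35.3, 35.8 and 37.2 CPM in SK-OV-3, 0.207 times the PA-1 level (adjusted p = 1.94e-12 by edgeR). For both genes no library of one line reached the range of the other. SPRY1 (chromosome 4, 123396795 to 123403760) measured 15.9, 15.1 and 14.5 CPM in PA-1 and 17.6, 16.1 and 15.3 CPM in SK-OV-3, and these ranges overlapped (log2 difference 0.10, standard error 0.101, adjusted p = 0.367 by edgeR).

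The SPRED genes, whose products bind neurofibromin and limit RAS, were closer between the lines. SPRED1 (chromosome 15, 38252326 to 38357249) had 73.3 ± 1.29 CPM (SD, n = 3) in PA-1 and 50.8 ± 1.21 CPM in SK-OV-3, without overlap (log2 difference -0.53, adjusted p = 2.06e-06 by edgeR). SPRED2 (chromosome 2, 65310851 to 65432637) had 52.6 ± 4.53 CPM in PA-1 and 64.7 ± 3.90 CPM in SK-OV-3, a 1.23-fold difference without overlap (adjusted p = 0.00300 by edgeR). IER3 (chromosome 6, 30743199 to 30744554) measured 58.7, 55.2 and 53.4 CPM in PA-1 and 332, 317 and 309 CPM in SK-OV-3. The 3 SK-OV-3 libraries were all higher, by 5.72-fold (log2 difference 2.51, standard error 0.0599, adjusted p = 9.06e-13 by edgeR). Exons of unlisted antisense transcripts overlap DUSP6 (AC024909.2) and IER3 (IER3-AS1), and since the strand setting of the counting is not given in the sources used here, reads of the partners cannot be told apart.

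**Figure D2:**
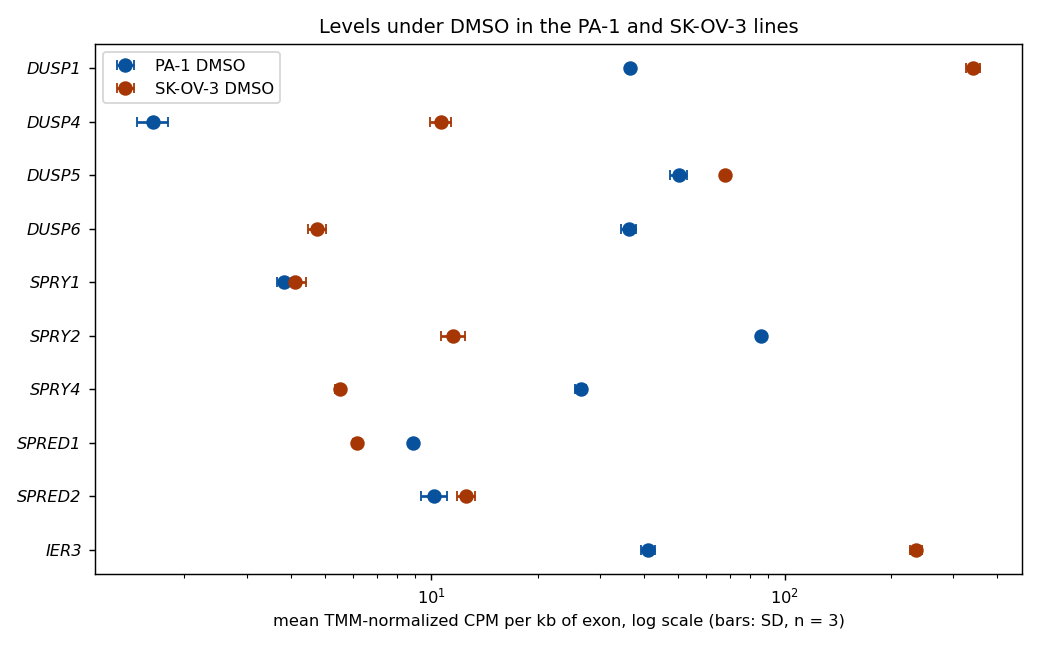
Mean level of each feedback gene in the DMSO libraries of PA-1 (blue) and SK-OV-3 (brown). The horizontal axis is a log scale of TMM-normalized CPM per kilobase of exon, and the bars are the SD of 3 libraries. DUSP1, at 342 in SK-OV-3 and 36.4 in PA-1, and SPRY2, at 11.5 and 85.6, show the opposite directions.

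To rank the genes within a line, CPM was divided by the length in kilobases of all annotated exons of a gene. The order and the overlaps between neighbors depend on this choice of length. For some genes the longest transcript is shorter, such as 2608 against 3963 bases for SPRY1 and 5537 against 7257 for DUSP4. Ranks by that length were not made. In PA-1 with DMSO the highest level per kilobase was that of SPRY2 (85.6 ± 1.66 CPM per kilobase), followed by DUSP5 (50.2), IER3 (41.1), DUSP1 (36.4), DUSP6 (36.2), SPRY4 (26.5), SPRED2 (10.2), SPRED1 (8.88), SPRY1 (3.83) and DUSP4 (1.63). DUSP1 and DUSP6 overlapped in this order and all other neighbors did not. In SK-OV-3 with DMSO the order was DUSP1 (342 ± 16.2 CPM per kilobase), IER3 (235), DUSP5 (68.0), SPRED2 (12.5), SPRY2 (11.5), DUSP4 (10.7), SPRED1 (6.15), SPRY4 (5.50), DUSP6 (4.75) and SPRY1 (4.12). SPRED2 overlapped with SPRY2 there, and SPRY2 with DUSP4. With BAY-850, DUSP6 (2.62) and SPRY1 (2.50) were the lowest in SK-OV-3 and overlapped, and IER3 (275) overlapped with DUSP1 (265) at the top.

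The makeup of the phosphatase transcripts therefore differed between the lines. Per kilobase, DUSP6 made up 29.1% of the summed level of the 4 DUSP genes in PA-1 with DMSO and 1.12% in SK-OV-3 with DMSO. DUSP1 made up 29.3% in PA-1 and 80.4% in SK-OV-3. The summed DUSP level was 124 ± 4.35 CPM per kilobase in PA-1 and 425 ± 16.0 in SK-OV-3, and the summed Sprouty level went the other way, at 116 ± 2.41 and 21.2 ± 0.749. The summed SPRED level was 19.1 ± 1.03 CPM per kilobase in PA-1 and 18.7 ± 0.881 in SK-OV-3, with overlapping libraries.

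The second comparison asked how the feedback genes responded to BAY-850 in PA-1. None of the 10 genes passed an adjusted p under 0.05 by the quasi-likelihood test of edgeR, adjusted by Benjamini-Hochberg over 15212 genes, where 4.65% of all genes were called higher and 2.48% lower. At an unadjusted p under 0.05, 2 of the 10 (DUSP1 and SPRY4) passed, as did 3618 of all 15212 genes. DESeq2 called 1, DUSP1. Their log2 fold changes ran from -0.19 to 0.19, with a median of -0.013 against -0.0019 over all genes.

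In PA-1, DUSP1 went from the 74.5, 72.9 and 73.1 CPM of the DMSO libraries to 66.9, 66.0 and 63.6 CPM. All BAY-850 libraries were lower, but the change of -0.16 on the log2 scale (standard error 0.0564) had an adjusted p of 0.0907 by edgeR. DESeq2 gave DUSP1 an adjusted p of 0.0479, and edgeR after removal of the trend on GC content gave a log2 fold change of -0.23 and an adjusted p of 0.0349. In PA-1 the responses of 13405 protein-coding genes followed GC content, with a Spearman correlation of 0.388, against 0.0955 in SK-OV-3. These correlations are across genes, and genes are not independent replicates.

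SPRY4 in PA-1 measured 170.3, 169 and 181 CPM with DMSO, and 196, 196 and 181 CPM after BAY-850, without overlap before rounding (log2 fold change 0.14, standard error 0.0570, adjusted p = 0.148 by edgeR). SPRY1 was 15.2 ± 0.702 CPM (SD, n = 3) and 17.3 ± 0.750 CPM, with no overlap (adjusted p = 0.221 by edgeR). SPRY2 was 260.2 ± 5.03 CPM and 243 ± 3.11 CPM, with every BAY-850 library lower (adjusted p = 0.273 by edgeR). Groups did not overlap for 2 higher genes (SPRY1 and SPRY4) and 2 lower genes (DUSP1 and SPRY2), while 14.1% of all genes were higher and 13.3% lower without overlap.

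In PA-1, DUSP6 had levels of 171, 173 and 158 CPM in the DMSO libraries and 163, 156 and 156 CPM in the treated ones, and the groups overlapped (log2 fold change -0.081, standard error 0.0566, adjusted p = 0.421 by edgeR). DUSP4, DUSP5, SPRED1, SPRED2 and IER3 overlapped between the groups as well, with log2 fold changes of -0.19, 0.088, -0.014, 0.020 and -0.011. The lowest adjusted p among these 5 genes was 0.353 (DUSP4), by edgeR.

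**Figure D3:**
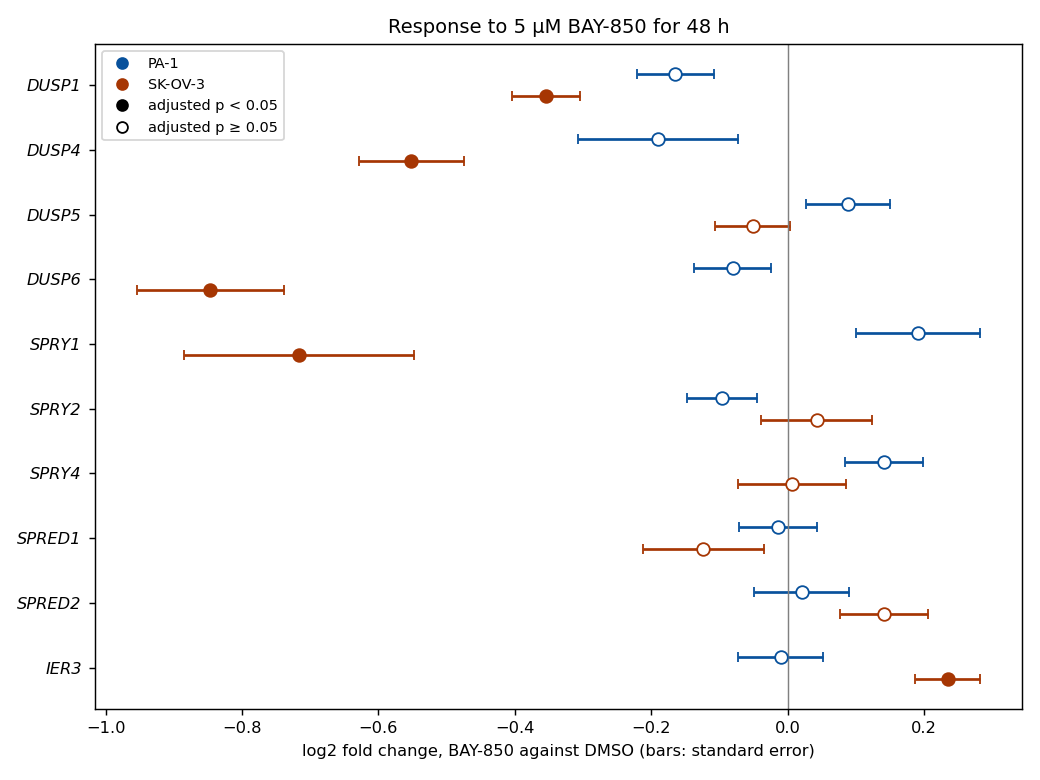
Log2 fold change of each feedback gene, BAY-850 against DMSO, in PA-1 (blue) and SK-OV-3 (brown). Bars are standard errors from edgeR, and filled points have an adjusted p under 0.05. The filled points are DUSP1, DUSP4, DUSP6, SPRY1 and IER3 of SK-OV-3, from -0.85 for DUSP6 to 0.23 for IER3, and every PA-1 point is open.

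The third comparison asked the same of SK-OV-3. With BAY-850, DUSP6 fell by 44.4%, SPRY1 fell by 39.1%, DUSP4 fell by 31.8%, DUSP1 fell by 21.8% and IER3 rose by 17.6%. SPRY2, SPRY4, SPRED1, SPRED2 and DUSP5 did not pass the test. By the quasi-likelihood test of edgeR, adjusted by Benjamini-Hochberg over 15348 genes, 4 of the 10 genes were thus lower and 1 was higher, where the test called 9.56% of all genes lower and 10.8% higher. The median log2 fold change of the 10 genes was -0.088, against -0.0091 over all genes.

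DUSP6, the cytoplasmic ERK phosphatase, measured 20.7, 22.1 and 23.2 CPM with DMSO, and 13.4, 12.2 and 10.8 CPM after BAY-850. The groups did not overlap, and the response was -0.85 on the log2 scale (standard error 0.108, adjusted p = 2.54e-04 by edgeR). The DUSP6 value without BAY-850 replicate 3 was -0.78 (adjusted p = 1.57e-04 by edgeR). DUSP4 measured 83.0, 72.6 and 76.5 CPM with DMSO, and 54.2, 56.0 and 46.9 CPM after BAY-850, so that every treated library was lower (log2 fold change -0.55, standard error 0.0766, adjusted p = 4.51e-04 by edgeR), and its value without replicate 3 was -0.49. DUSP1 measured 728, 667 and 677 CPM with DMSO, and 540, 558 and 508 CPM after BAY-850, without overlap (log2 fold change -0.35, standard error 0.0493, adjusted p = 4.63e-04 by edgeR), and -0.33 without replicate 3. DUSP5, the remaining nuclear phosphatase, measured 176, 179 and 179 CPM with DMSO, and 175.5, 178 and 156 CPM after BAY-850. Only replicate 3 of the treated DUSP5 libraries lay well below the DMSO range (log2 fold change -0.052, adjusted p = 0.552 by edgeR), and without it the value was -0.0059.

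SPRY1 measured 17.6, 16.1 and 15.3 CPM with DMSO, and 11.4, 11.3 and 6.98 CPM after BAY-850 in SK-OV-3. All treated libraries were lower and replicate 3 was the lowest of them (log2 fold change -0.72, standard error 0.169, adjusted p = 0.0115 by edgeR). Without replicate 3 the SPRY1 value was -0.52 (adjusted p = 0.00421 by edgeR). SPRY2 measured 32.3, 37.6 and 35.2 CPM with DMSO, and 35.7, 38.1 and 33.6 CPM after BAY-850, and SPRY4 measured 35.3, 35.8 and 37.2 CPM and 33.5, 36.0 and 38.1 CPM. Both overlapped between the groups, with log2 fold changes of 0.043 and 0.0062 (adjusted p = 0.762 and 0.968 by edgeR). Without replicate 3 the SPRY2 value was 0.075 and the SPRY4 value turned to -0.054.

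SPRED1 in SK-OV-3 was 50.8 ± 1.21 CPM (SD, n = 3) under the vehicle and 46.3 ± 6.50 CPM after BAY-850, and its treated replicate 3 (39.1 CPM) was below the other treated libraries (48.3 and 51.6 CPM). The SPRED1 log2 fold change was -0.12 (adjusted p = 0.371 by edgeR), and -0.024 without that library. SPRED2 was 64.7 ± 3.90 CPM with DMSO, and 70.7 ± 3.01 CPM after BAY-850 (log2 fold change 0.14, adjusted p = 0.152 by edgeR), and 0.16 without replicate 3. IER3 was the one feedback gene that rose, with 332, 317 and 309 CPM with DMSO, and 372, 379 and 365 CPM after BAY-850. Every treated library was above every DMSO library (log2 fold change 0.23, standard error 0.0476, adjusted p = 0.00520 by edgeR), and without replicate 3 the IER3 value was 0.24.

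Without BAY-850 replicate 3, 4 of the 10 genes were still called lower and 1 higher. Including that library, groups did not overlap for IER3 and SPRED2 among higher genes and for the 4 lower genes. Over all genes, 18.1% were higher and 20.5% lower without overlap.

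Whether the response differed between the lines was tested with the interaction term in one fit of 12 libraries and 16830 genes. The DUSP6 response was lower in SK-OV-3 than in PA-1 by a log2 difference of -0.78 (standard error 0.103, adjusted p = 1.38e-04 by edgeR), and the SPRY1 response by -0.92 (standard error 0.216, adjusted p = 0.0103 by edgeR). The IER3 response was higher in SK-OV-3 by 0.23 (standard error 0.0712, adjusted p = 0.0388 by edgeR). Thus 2 of the 10 genes passed with a lower and 1 with a higher response in SK-OV-3, where 7.77% and 6.70% of all genes did. Without BAY-850 replicate 3 of SK-OV-3 the differences were -0.70 for DUSP6, -0.71 for SPRY1 and 0.25 for IER3, and all passed.

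DUSP1 and DUSP4 passed in SK-OV-3 and not in PA-1, but their difference between the lines did not pass by edgeR, at -0.20 (standard error 0.0712, adjusted p = 0.0741) and -0.37 (standard error 0.133, adjusted p = 0.0757). DESeq2 called both differences, with adjusted p of 0.0175 for DUSP1 and 0.0437 for DUSP4, and edgeR called that of DUSP4 without DMSO replicate 3 of PA-1 (-0.45, adjusted p = 0.0317). Without BAY-850 replicate 3 of SK-OV-3 the differences were -0.16 for DUSP1 and -0.30 for DUSP4, and neither passed. The IER3 difference lost its call with the replicate number as a block (adjusted p = 0.0702 by edgeR), when the filter on low counts was left out and when any of 8 single libraries was left out, and its adjusted p ranged from 0.00416 to 0.105 over 19 alternatives. The 8 libraries were DMSO replicates 1 and 2 and BAY-850 replicates 1 and 2 of PA-1, and DMSO replicates 2 and 3 and BAY-850 replicates 1 and 2 of SK-OV-3. The differences of DUSP5, SPRY2, SPRY4, SPRED1 and SPRED2 ranged from -0.15 (DUSP5) to 0.13 (SPRY2), and from -0.19 (SPRY4) to 0.17 (SPRY2) without that library, and none was called in either fit.

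Other genes of the pathway were read from 4 lists. With DMSO, the test between the lines called 7 of 18 other ERK-responsive genes higher and 9 lower in SK-OV-3 (list median -0.25). It called 10 higher and 9 lower of 22 genes of the kinase cascade (0.077), 5 and 4 of 10 tested other phosphatases and relatives (0.18), and 8 and 6 of 14 genes of the stress arm (0.16), where the test called 40.1% of all genes higher and 40.2% lower. Of the ERK-responsive genes in SK-OV-3, 5 fell and 3 rose with BAY-850, with a list median of -0.11, where 9.56% of all genes were called lower and 10.8% higher. FOS, an AP-1 subunit, measured 152, 161 and 164 CPM with DMSO, and 37.8, 36.2 and 36.1 CPM after BAY-850. All treated FOS libraries lay far below the DMSO libraries (log2 fold change -2.10, standard error 0.0582, adjusted p = 3.35e-09 by edgeR). EGR1, an immediate early zinc finger factor, fell from 536 ± 5.26 CPM (SD, n = 3) to 235 ± 4.45 CPM (log2 fold change -1.17, adjusted p = 4.05e-08 by edgeR). PHLDA1, an ERK-induced pleckstrin homology protein, went the other way, from 677 ± 4.15 CPM to 969 ± 36.6 CPM (log2 fold change 0.53, adjusted p = 5.35e-06 by edgeR), as did MAFF, a small MAF factor (0.44, adjusted p = 7.16e-04 by edgeR). The others that passed, named after their values were seen, were EGR3 (-1.98), IER2 (-0.26) and HBEGF (-0.37), which fell, and ETV5 (0.40), an ETS factor, which rose. Genes that ERK is known to induce thus moved in both directions in the same libraries. HBEGF lost its call without DMSO replicate 2. Without BAY-850 replicate 3, 6 of the list were called lower and 5 higher, and the shares over all genes in that fit are not given. The values were then -2.10 for FOS, -1.20 for EGR1, 0.55 for PHLDA1 and 0.50 for MAFF, and -1.65, -0.23, -0.42 and 0.42 for EGR3, IER2, HBEGF and ETV5, all called.

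The same 18 genes in PA-1 gave 2 called lower and 1 called higher, with a list median of 0.013, where 2.48% of all genes were called lower and 4.65% higher. FOS had a log2 fold change of -0.25 (adjusted p = 0.0141 by edgeR), EGR1 of -0.21 (adjusted p = 0.0251 by edgeR) and FOSL1, another AP-1 subunit, of 0.30 (adjusted p = 0.0109 by edgeR). LIF, a cytokine, had 0.24 and an adjusted p of 0.0581 by edgeR. Without DMSO replicate 2, and likewise without BAY-850 replicate 2, none of the list was called in either direction. FOSL1 also lost its call with scaling by library size only and after removal of the GC trend, and EGR1 without DMSO replicate 3 or BAY-850 replicate 1. Without BAY-850 replicate 3, LIF was called as well. By the interaction test, the response in SK-OV-3 was lower for 4 and higher for 3 of the 18 genes (7.77% and 6.70% of all genes), including FOS (-1.86, adjusted p = 1.28e-09 by edgeR), EGR1 (-0.97, adjusted p = 1.11e-07 by edgeR) and PHLDA1 (0.51, adjusted p = 6.41e-05 by edgeR). It was lower for 5 and higher for 3 without BAY-850 replicate 3 of SK-OV-3, with -1.85 for FOS, -0.99 for EGR1 and 0.54 for PHLDA1.

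**Figure D4:**
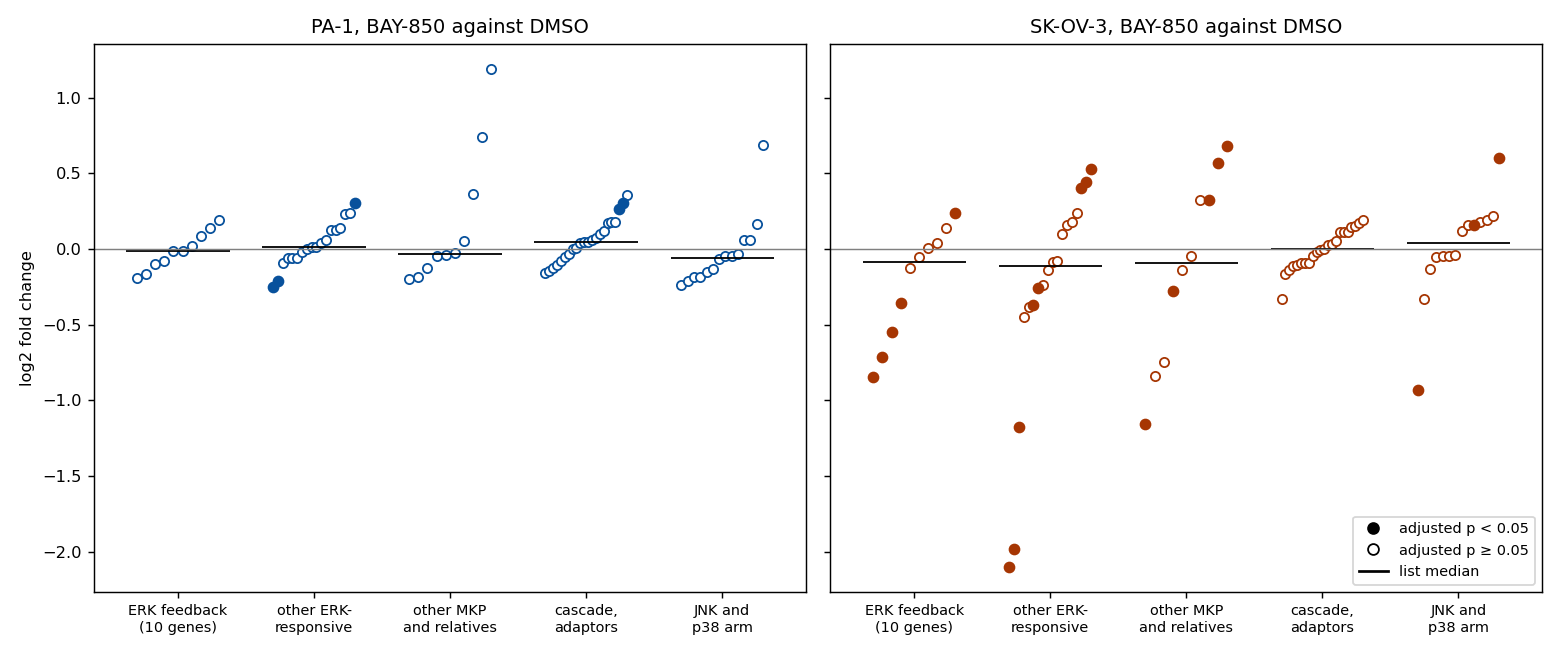
Log2 fold changes with BAY-850 of the 10 feedback genes and of the tested genes of 4 other lists in PA-1 (left) and SK-OV-3 (right). Each point is a gene, filled points have an adjusted p under 0.05 by edgeR, and black lines are list medians. In SK-OV-3 the ERK-responsive list spreads from FOS at -2.10 to PHLDA1 at 0.53, while no gene of the kinase cascade is filled.

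The list of 11 other phosphatases and relatives held 10 tested genes per line. In PA-1 edgeR called none (list median -0.034), 2 had an unadjusted p under 0.05 (3618 of all 15212 genes), and DESeq2 called 1 higher. The nearest to a call was DUSP7, an ERK phosphatase, at 0.37 (adjusted p = 0.0548 by edgeR). DUSP7 was called in PA-1 in 4 of 14 alternatives, which were DESeq2, no filter on low counts, the replicate number as a block and removal of DMSO replicate 3. In SK-OV-3, 3 rose and 2 fell (list median -0.094), where the shares over all genes were again 10.8% and 9.56%. The 3 that rose encode phosphatases that act mainly on JNK and p38. DUSP10 measured 60.8, 59.9 and 64.4 CPM with DMSO, and 94.9, 99.5 and 99.1 CPM after BAY-850. Every treated DUSP10 library was higher (log2 fold change 0.68, standard error 0.0593, adjusted p = 1.61e-05 by edgeR). DUSP8 rose by 0.57 (adjusted p = 3.19e-04 by edgeR) and DUSP16 by 0.33 (adjusted p = 0.0158 by edgeR). SPRY3, at a mean of 3.95 CPM with DMSO, and 1.76 CPM after BAY-850, and DUSP7 (named after its value was seen) fell, by log2 fold changes of -1.16 and -0.28 (adjusted p = 0.0228 and 0.0406 by edgeR). The DUSP10, DUSP8 and DUSP16 responses were higher in SK-OV-3 than in PA-1 by 0.85, 0.60 and 0.34, and that of DUSP7 was lower by -0.65, all called by the interaction test (adjusted p = 8.54e-06, 0.00268, 0.0153 and 0.00654 by edgeR). The SPRY3 difference of -0.97 was not (adjusted p = 0.108 by edgeR).

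Within SK-OV-3, leaving out either of DMSO replicates 2 and 3 ended the calls of DUSP16 and of SPRY3, and leaving out BAY-850 replicate 2 also ended that of SPRY3. DUSP7 lost its call in 7 of 14 alternatives, among them the removal of each SK-OV-3 library other than BAY-850 replicate 3. DUSP10 and DUSP8 were called in all 14. Without BAY-850 replicate 3, 4 genes of the list were higher and 3 lower, with 0.66 for DUSP10, 0.60 for DUSP8, 0.28 for DUSP16, -0.93 for SPRY3 and -0.31 for DUSP7, all called. The differences between the lines were then 0.84, 0.64 and 0.31 for DUSP10, DUSP8 and DUSP16 and -0.67 for DUSP7, all called, and -0.73 for SPRY3 (adjusted p = 0.149 by edgeR). The SPRY3 difference was called only without BAY-850 replicate 1 of SK-OV-3, among 19 alternatives.

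In the main fits for BAY-850, kinases and adaptors of the cascade were called in PA-1 only. Of 22 genes, from GRB2 and SOS1 through the RAS, RAF, MEK and ERK genes to RPS6KA1, none was called by edgeR in SK-OV-3 (list median -0.0021). There it called 10.8% of all genes higher and 9.56% lower. At an unadjusted p under 0.05, 4 of the 22 passed in SK-OV-3, as did 5116 of all 15348 genes. The interaction term called none, with 5 at an unadjusted p under 0.05 (4751 of all 16830 genes) and 2 called by DESeq2. DESeq2 also called 2 of them higher in SK-OV-3, and edgeR called 2 higher without BAY-850 replicate 3, a fit in which the interaction term called 1 lower response in SK-OV-3 (ARAF, -0.33, adjusted p = 0.0399). The nearest in SK-OV-3 were RPS6KA1, the ERK-activated kinase RSK1 (0.19, adjusted p = 0.0511 by edgeR), MAP2K1, which encodes MEK1 (0.17, adjusted p = 0.0544 by edgeR), RPS6KA3 (0.15, adjusted p = 0.0899 by edgeR) and RASA1 (-0.17, adjusted p = 0.117 by edgeR). These values without BAY-850 replicate 3 were 0.19, 0.21, 0.16 and -0.16, and MAP2K1 was called (adjusted p = 0.0151 by edgeR). In PA-1, MAP2K1 rose from 155 ± 5.04 CPM (SD, n = 3) to 191 ± 10.9 CPM (log2 fold change 0.30, adjusted p = 0.00705 by edgeR) and RPS6KA1 rose by 0.27 (adjusted p = 0.0277 by edgeR). These 2 of the 22 were called, where edgeR called 4.65% of all genes higher and 2.48% lower in PA-1. SHC1 and ARAF did not pass, at 0.17 each (adjusted p = 0.112 and 0.146 by edgeR). Scaling by library size only left neither PA-1 call, and RPS6KA1 also lost its call after removal of the GC trend and in 5 of the 6 fits that left out a PA-1 library, all except that without BAY-850 replicate 1.

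In the stress arm of 14 genes, which signals through JNK and p38, SK-OV-3 had 2 higher and 1 lower gene, with and without BAY-850 replicate 3, and a list median of 0.037. The shares over all genes, with that library, were 10.8% higher and 9.56% lower. GADD45B, a stress-induced gene, measured 167, 149 and 153 CPM with DMSO, and 238, 245 and 221 CPM after BAY-850. No treated GADD45B library reached down to the DMSO range (log2 fold change 0.60, standard error 0.0583, adjusted p = 3.54e-05 by edgeR), and its response was higher in SK-OV-3 than in PA-1 by 0.53 (adjusted p = 0.00370 by edgeR). JUN (0.16, adjusted p = 0.0351 by edgeR) rose and MAP2K6, a p38 kinase kinase, fell (-0.93, adjusted p = 0.0372 by edgeR). The JUN call was lost in 7 of 14 alternatives, among them the removal of DMSO replicate 2 or 3 or of BAY-850 replicate 1 or 2. The MAP2K6 call was lost when any SK-OV-3 library other than BAY-850 replicate 3 was left out. In PA-1 none of the 14 genes was called by edgeR (list median -0.058), 5 had an unadjusted p under 0.05 (3618 of all 15212 genes), and DESeq2 called 3 lower. The interaction test called the response of 1 gene higher in SK-OV-3 (GADD45B) and that of 1 lower, MAPK11, a p38 kinase named after its value was seen (-1.03, adjusted p = 0.0181 by edgeR). Over all genes it called 6.70% higher and 7.77% lower. The JUN difference of 0.28 was not called (adjusted p = 0.0637 by edgeR) but was in 10 of 19 alternatives, among them DESeq2, which called 3 of the list, and the replicate number as a block. The SK-OV-3 values without BAY-850 replicate 3 were 0.63 for GADD45B, 0.20 for JUN and -1.28 for MAP2K6. The differences between the lines were then 0.57 for GADD45B, 0.33 for JUN, -0.97 for MAPK11 and -1.04 for MAP2K6, all called. With that library the MAP2K6 difference was -0.71 and not called (adjusted p = 0.124 by edgeR). Of 19 alternatives, only the removal of that library gave the MAP2K6 call.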

How the data were processed

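RNA of 12 libraries, 3 replicates of each of 4 groups, was measured by sequencing. The labels describe oligo-dT selection and dUTP marking of the strand, whereas the design text gives ribosomal RNA depletion, and ribosomal RNA genes held 7.94% to 16.9% of the counts. The values deposited by the authors are expected counts for each gene symbol, without normalization, and the submitters' processing notes name Bowtie2 2.1.0, RSEM 1.2.15 and hg38. The annotation and strand setting are not given in the sources used here. RSEM divides reads shared between genes, and among the feedback genes SPRED1 alone had expected counts that were not whole. The gene list and all other lists were chosen with earlier results of these data known.

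Expected counts were rounded, scaled by TMM and tested in edgeR 4.0.16 (R 4.3.3) by the quasi-likelihood test on all genes kept by its filter on low counts, with treatment only, line only, or line, treatment and their product. P-values had a Benjamini-Hochberg adjustment over all genes tested, and calls need an adjusted p under 0.05. The standard error is the log2 fold change divided by the square root of F. Levels are CPM with TMM factors from all 12 libraries. All feedback genes were named. One gene among those most like DUSP6 is not reported here. Of the other lists, up to 4 genes per line with the smallest p and a mean of at least 1 CPM were named, and other genes only where the text says so. Replicates were not duplicates (chi-square divided by its degrees of freedom, 5.05 to 72.7), and the smallest exact permutation p for 3 against 3 is 0.1. Positions and exon lengths come from GENCODE on GRCh38, matched by symbol for 23925 of 26475 symbols. Alternatives were DESeq2 1.42.0, RLE factors, library size only, no filter, the replicate number as a block, all libraries in one fit, removal of the GC trend (loess span 0.5) and leaving out each library. Shares over all genes are given for the main fits only, so counts from the alternatives have no share beside them. Scaling by library size without 21 ribosomal RNA genes, and all alternatives for the other lists, were added after the data were seen. The fits were also run on simulated counts, and no outcome of that run is given here. The spread between simulated replicates was set below that fitted in SK-OV-3, so the run does not measure error rates in these data.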

Additional observations from a re-analysis of the deposited data

Results flagged for a closer look

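The response to BAY-850 differed between the lines, by the interaction term of the edgeR fit with Benjamini-Hochberg adjustment, for 3 of the 10 feedback genes. Over all genes the same test called 7.77% lower and 6.70% higher. The log2 fold change of DUSP6 was lower in SK-OV-3 than in PA-1 by a difference of -0.78 (adjusted p = 1.38e-04), and that of SPRY1 by -0.92 (adjusted p = 0.0103). For IER3 the difference was 0.23 in the other direction (adjusted p = 0.0388), and this call was lost in 10 of 19 alternatives, among them the replicate number as a block, with adjusted p up to 0.105. Line and culture medium cannot be told apart in these differences.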

How the results depend on the processing

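The 5 calls in SK-OV-3 (DUSP1, DUSP4, DUSP6, SPRY1 and IER3) passed in all 14 alternatives, with largest adjusted p of 0.00304, 0.00345, 0.00313, 0.0480 and 0.0358. The interaction calls of DUSP6 and SPRY1 passed in all 19, with largest adjusted p of 0.00269 and 0.0307. In PA-1, DESeq2 and removal of the GC trend each called 1 of the 10 genes, the 1 being lower (DUSP1), where edgeR called 0. For the interaction, DESeq2 called 5, of which 4 were lower, and no share over all genes is given beside this count. It also called 9 of the 18 other ERK-responsive genes there, against 7 by edgeR. Leaving out the filter on low counts took the count of higher feedback genes from 1 to 0. When single libraries were left out, that count ranged from 0 to 1, the count of all called genes from 2 to 4 and that of lower genes from 2 to 3. The cause was not tested. Calls between the lines with DMSO kept their direction and side of the threshold in 14 alternatives.

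With the replicate number as a replicate block, 5 genes were called in SK-OV-3, 0 in PA-1 and 2 by the interaction, with 0 higher because the IER3 adjusted p was 0.0702. Same-numbered libraries had correlations of 0.0153, 0.00242 and -0.226 between their deviations in PA-1, where differently numbered pairs ran from -0.425 to 0.367. The values in SK-OV-3 were 0.0431, 0.0370 and 0.155, where differently numbered pairs ran from -0.177 to 0.129. These values do not settle whether the numbers pair the samples, and the main fits left the numbers out. Between the lines with DMSO, a block by the shared number was added after the data were seen and left 9 genes called. Depth limits the less expressed genes most: the feedback genes had at least 375 counts per library, but SPRY3 and EGR3 had as few as 62 and 35 in SK-OV-3 with BAY-850.

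Directions reversed only for genes that were not called. In PA-1, SPRED2 went to -0.019 with library size only, -0.00069 without ribosomal RNA genes in the library size and -0.043 without DMSO replicate 1. In PA-1, SPRED1 went to 0.084 after removal of the GC trend and 0.012 without BAY-850 replicate 2, and IER3 to 0.026 without DMSO replicate 1 and 0.013 without BAY-850 replicate 2. In SK-OV-3, SPRY4 went to -0.0075 with all 12 libraries in one fit, -0.0033 without ribosomal RNA genes, -0.0048 without DMSO replicate 1 and -0.054 without BAY-850 replicate 3, and SPRY2 to -0.0085 without DMSO replicate 1. Over the fits that each left out a library, the values of these genes ran from -0.036 to 0.012 for SPRED1, -0.043 to 0.082 for SPRED2 and -0.038 to 0.026 for IER3 in PA-1, and from -0.0085 to 0.099 for SPRY2 and -0.054 to 0.058 for SPRY4 in SK-OV-3.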
